A study of Drosophila melanogaster with 9 samples.

Results

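The genes described here encode ubiquitin-specific proteases of Drosophila melanogaster other than non-stop, the protease of the deubiquitinase module of SAGA. The 10 genes were Usp5, Usp7, Usp8, Usp10, Usp14, Usp47, Usp12-46, scny, faf and puf, taken by their gene identifiers from a table of 15682 genes. Usp5 was chosen by its RPKM in these libraries, far higher in non-stop, so its levels are given as a description and it was not tested. All 10 identifiers matched the annotation.

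Ubiquitin is a small protein that is joined to other proteins, singly or in chains, and marks them for destruction by the proteasome, for sorting or for other fates. Ubiquitin-specific proteases are cysteine proteases that cut ubiquitin off again, and each acts on its own substrates, often with a partner protein that guides or activates it. At stage 5, the cellular blastoderm, the fly embryo still holds RNA that the mother laid down in the egg while transcription from its own genome takes over, so the RNA of such a gene can come from either source.

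Polyadenylated RNA was sequenced from hand-sorted stage 5 embryos (collected over 2 h, then aged for 1 h at 25 °C) of OregonR, the wild-type strain, and of flies labelled ataxin-7 or non-stop, with 3 biological replicates of each. Ataxin-7 anchors the deubiquitinase module to SAGA. The labels name no allele and do not say whether mothers, embryos or both were mutant, and the genotype tags of ataxin-7 replicates 2 and 3 differ from their titles, which were followed. The titles of OregonR and ataxin-7 carry the number 1013 and those of non-stop 1190, read here as experiments 1013 and 1190. The libraries here hold no wild type numbered 1190. Any difference that involves non-stop is also one of experiment, and the 2 cannot be told apart.

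The values are RPKM, reads per kilobase of gene and per megaread (M), and every error is the SD over 3 libraries unless it is named as an SE. Libraries held 36.9 to 90.0 M reads in genes, the fewest in non-stop. The gene not was at 54.2 ± 2.30 RPKM in OregonR, 48.6 ± 4.77 in ataxin-7 and 0.792 ± 0.273 in non-stop. Atxn7 was at 18.9 ± 0.899 RPKM in OregonR and 25.1 ± 3.04 in ataxin-7, so its RNA was not lower there, and those samples are called the libraries labelled ataxin-7. One of them, replicate 1, stood apart, and it alone has a genotype tag that matches its title. Whether the tags bear on this split was not tested. The mean log2(RPKM + 1) of 22 early zygotic genes such as ftz and eve ran from 6.64 to 6.88 in OregonR, was 3.84, 5.32 and 5.78 in ataxin-7 replicates 1, 2 and 3, and ran from 3.08 to 3.47 in non-stop. That of 15 genes of maternal RNA such as bcd and osk ran from 3.05 to 3.76 in OregonR, was 6.02, 3.93 and 3.88 in the same ataxin-7 replicates, and ran from 5.22 to 5.40 in non-stop. No gene of either list was at 0 in any library. The part of these differences between libraries in the results below was not tested, and in RNA of whole embryos fewer cells of a type and less RNA per cell cannot be told apart.

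All 10 genes were above 1 RPKM in every library and all were tested or described. Their lowest value was 2.13 RPKM, and the smallest number of reads behind a value was 478, whose counting error is 4.57%. The plot of RPKM by library shows each value.

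**Figure D1:**
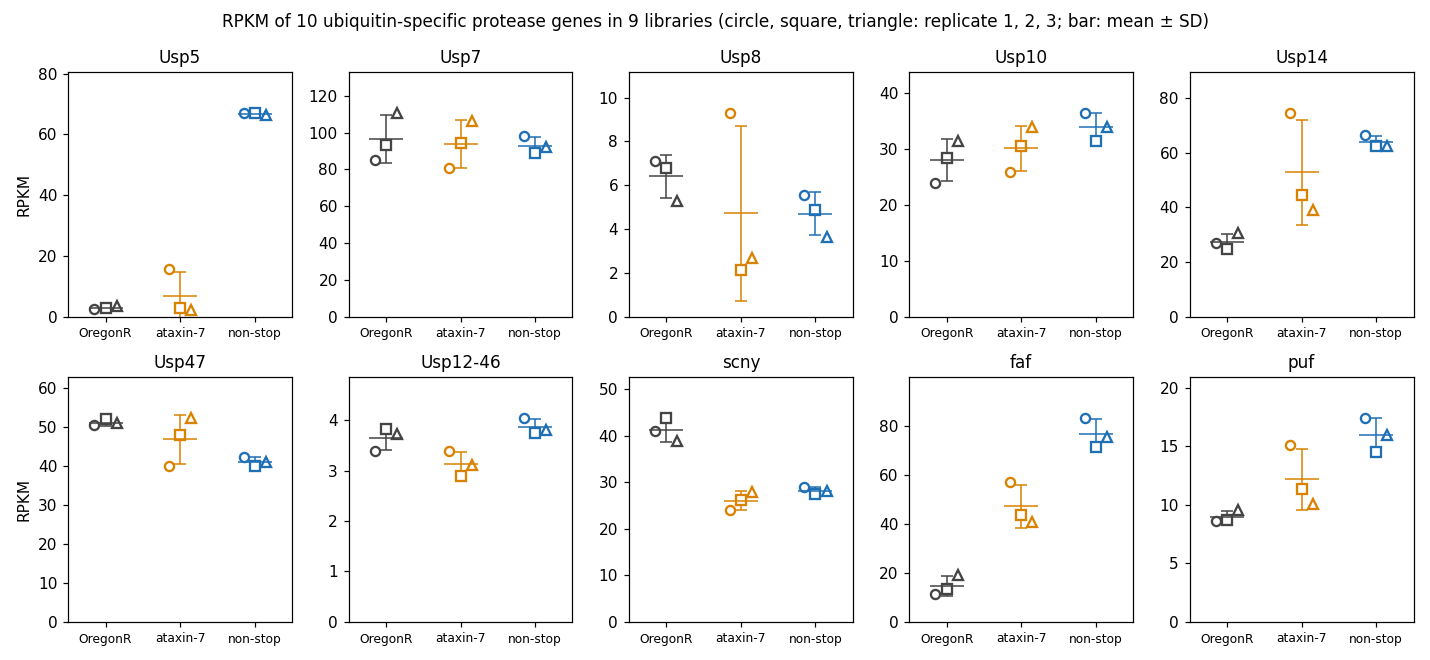
RPKM (vertical axes, each starting at 0) of the 10 genes in the libraries of OregonR, ataxin-7 and non-stop; circles, squares and triangles are replicates 1, 2 and 3, and bars are the mean ± SD. Usp5 lay between 66.4 and 67.1 RPKM in non-stop and under 4 in all OregonR libraries, and ataxin-7 replicate 1 was the highest or lowest of its group for all 10 genes.

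Usp5 (FBgn0035402) is the fly member of the family of human USP5 (isopeptidase T), which takes apart ubiquitin chains that are not attached to any protein. It spans bases 3145405 to 3148358 of arm 3L (minus strand, in BDGP6 as for all positions here), and 94.7% of this stretch is exonic. In OregonR, Usp5 was at 2.58, 2.78 and 3.52 RPKM. The libraries labelled ataxin-7 held 15.7, 2.91 and 2.15 RPKM. The non-stop libraries held 66.9, 67.1 and 66.4 RPKM. The lowest non-stop value was thus 18.9 times the highest OregonR value, while ataxin-7 replicates 2 and 3 were within or below the range of OregonR and replicate 1 lay between the groups, 6.21 times the mean of its own 2 companions.

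The mean of Usp5 was 2.96 ± 0.494 RPKM in OregonR, 6.93 ± 7.62 in ataxin-7 and 66.8 ± 0.371 in non-stop. In non-stop against OregonR the means differed 22.5-fold, and the log2 fold change of RPKM + 1 was 4.10 (SE 0.10). Only 6 of the 7280 genes tested in this comparison had a larger log2 fold change. Against the libraries labelled ataxin-7 the log2 fold change of non-stop was 3.52 (SE 0.64), and no gene of 6968 lay above it. In ataxin-7 against OregonR it was 0.58 (SE 0.62), and this value turned to -0.17 without ataxin-7 replicate 1. These values chose Usp5, and they carry no test.

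The genes on either side of Usp5 were read for comparison. Alg2, which lies on the opposite strand and ends 120 bases from Usp5, was at 31.2 ± 1.85 RPKM in OregonR, 26.5 ± 0.946 in ataxin-7 and 23.7 ± 1.19 in non-stop, the reverse order of Usp5. BtbVII, 287 bases away on the other side, was at 12.7 ± 0.629, 15.8 ± 7.76 and 30.5 ± 2.14 RPKM, the same order as Usp5. CG11537, 1947 bases away, was at 1.27 ± 0.0092, 2.76 ± 0.949 and 2.39 ± 0.125 RPKM. Among the ataxin-7 libraries BtbVII and CG11537 were highest in replicate 1, as Usp5 was, and Alg2 in replicate 3. None of these 3 neighbours moved by as much as Usp5 in non-stop, which the choice of Usp5 by its high values there made likely. Whether the rise is confined to Usp5 was not tested. No gene in the annotation overlaps Usp5.

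The genes most like Usp5 were found by the Pearson correlation of log2(RPKM + 1) over the 9 libraries among 4282 genes that varied at least 2-fold on that scale. The libraries share their groups and depth, so these correlations are descriptions. The closest genes were LPCAT on X (r = 0.999), Csk on 3R (r = 0.997) and Ube4B on 2L (r = 0.996). LPCAT was at 3.02 ± 0.0509 RPKM in OregonR, 4.27 ± 2.35 in ataxin-7 and 15.4 ± 0.259 in non-stop. Ube4B, a ubiquitin chain elongation factor, was at 16.7 ± 1.22, 18.4 ± 6.19 and 38.5 ± 0.480 RPKM. Each of the 3 had its highest ataxin-7 value in replicate 1, as Usp5 did, which their choice by likeness to Usp5 made likely.

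**Figure D2:**
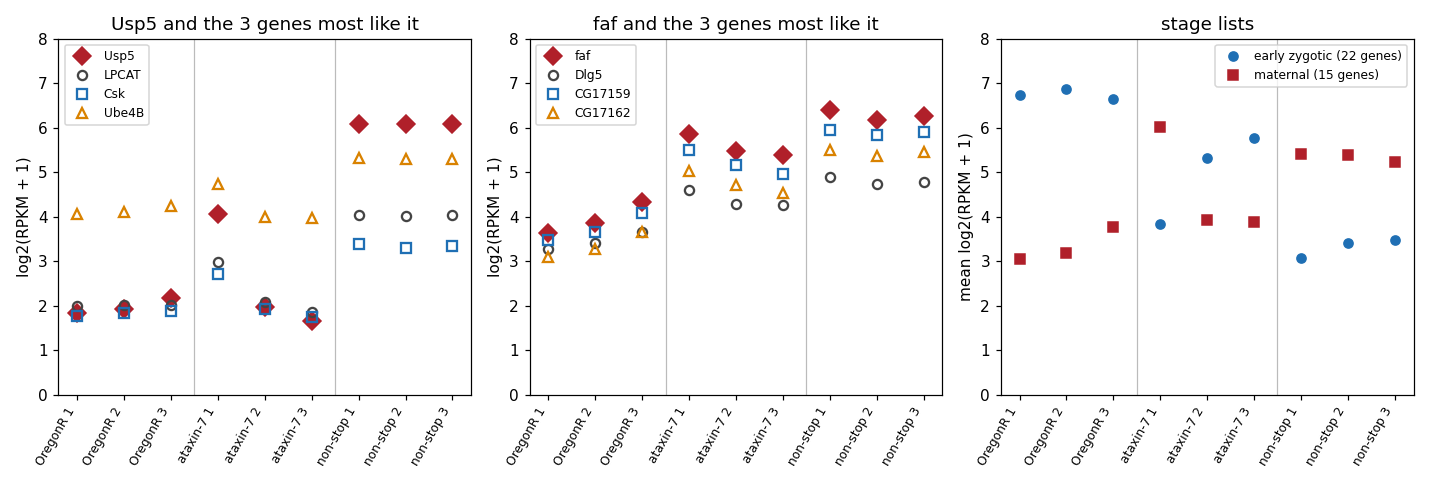
Log2(RPKM + 1) of Usp5 and of faf in the 9 libraries with the 3 genes most like each (left and middle), and the mean log2(RPKM + 1) of the early zygotic and maternal lists (right). Usp5 is high in non-stop and intermediate in ataxin-7 replicate 1 only, faf is higher in all ataxin-7 and all non-stop libraries than in OregonR, and the maternal list is at 6.02 in ataxin-7 replicate 1.

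Among the other 9 genes, those called by limma were counted in each comparison at a Benjamini-Hochberg (BH) adjusted p under 0.05 over all genes tested. For ataxin-7 against OregonR these were 3 of 9, faf and Usp14 higher and scny lower, beside 32.4% of all 7049 genes tested (16.0% higher, 16.4% lower). For non-stop against OregonR they were 6 of 9, with faf, Usp14, puf and Usp10 higher and Usp47 and scny lower, beside 82.7% of 7280 genes (47.7% higher, 35.1% lower). In non-stop against ataxin-7 faf alone was called of 9, beside 32.2% of 6968 genes (15.5% higher, 16.7% lower). Both comparisons against OregonR share its libraries. The 2 groups did not overlap for 4, 5 and 2 of the 9 genes in these comparisons, beside 54.0%, 85.5% and 53.6% of all genes. Read against those shares, the count called was near the background in ataxin-7. It was lower than the background in both comparisons of non-stop, but 9 genes are few and this difference was not tested.

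The median log2 fold change of the 9 genes was -0.04, 0.07 and 0.20 in the 3 comparisons, and that of all genes was 0.05, 0.17 and 0.12. The median size of the change, whatever its sign, was 0.38 for the 9 genes and 0.69 for all genes in non-stop against OregonR. Since the median of all genes in that comparison was 0.17, values relative to it are given where they matter. The count of called genes depended on single libraries. Without ataxin-7 replicate 1 it was 4 in ataxin-7 against OregonR (faf, Usp14, Usp8 and scny) and 6 in non-stop against ataxin-7 (faf, Usp14, puf, Usp8 and Usp12-46 higher, Usp47 lower). The share of all genes called was 51.4% and 81.1% in these fits, above that of the 9 genes in both. The count was 1 in the former without OregonR replicate 1 or 2, where 4.53% and 2.93% of all genes were called. It was 0 in the latter without ataxin-7 replicate 2, beside 13.1% of all genes. It was also 0 there without any one non-stop replicate, beside 10.9% to 11.3% of all genes. In each fit with a count of 0, limma gave 1 of the 9 genes an unadjusted p under 0.05.

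**Figure D3:**
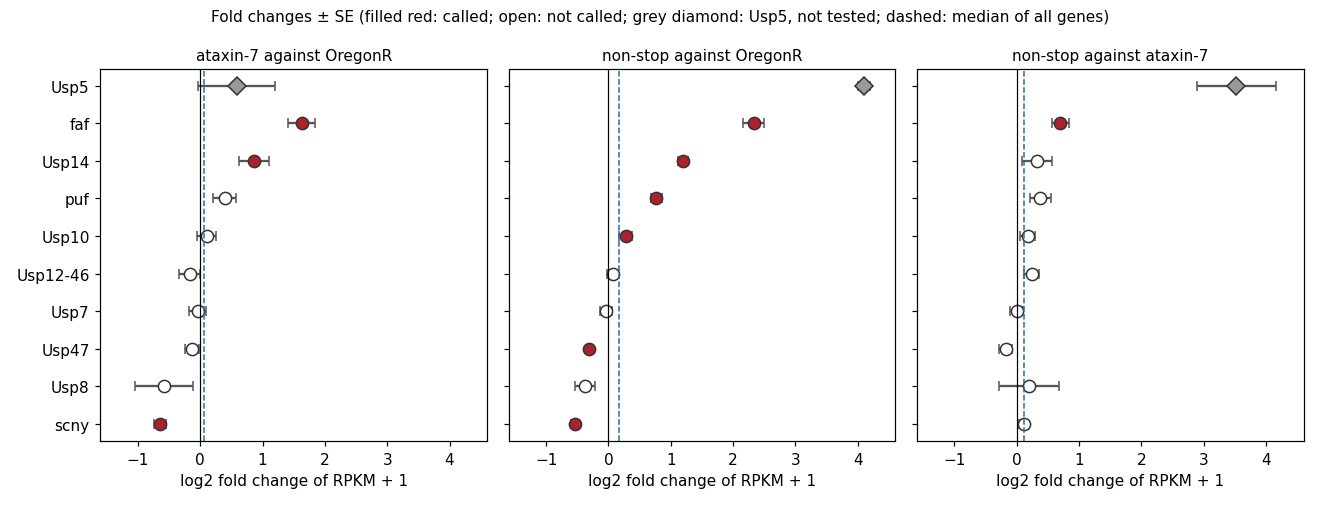
Log2 fold change of RPKM + 1 (horizontal axis) with its SE for the 10 genes in 3 comparisons; filled red points were called, open points were not, the grey diamond is Usp5, which was not tested, and the dashed line is the median of all genes. The values of faf were 1.63, 2.33 and 0.70, and those of Usp7 were within 0.05 of 0.

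The gene faf (fat facets, FBgn0005632) encodes the fly relative of human USP9X. It is known from the fly as a gene whose maternal product the early embryo needs, and its protease spares the epsin Lqf. It spans bases 31777020 to 31790681 of arm 3R (plus strand), with 21 separate exonic stretches. Its RPKM was 11.4, 13.6 and 19.1 in OregonR. It was 57.2, 43.6 and 40.8 in ataxin-7. The 3 non-stop libraries held 83.2, 71.2 and 75.4. The 3 groups did not overlap, with OregonR lowest and non-stop highest.

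The means of faf were 14.7 ± 3.99, 47.2 ± 8.76 and 76.6 ± 6.04 RPKM. Against OregonR, faf was 3.21-fold higher in ataxin-7 by the means, with a log2 fold change of 1.63 (SE 0.22, limma BH-adjusted p = 0.00604). In non-stop it was 5.21-fold higher, with a log2 fold change of 2.33 (SE 0.17, limma BH-adjusted p = 1.77e-05). Both calls held under every setting run. Non-stop also exceeded ataxin-7 by 0.70 (SE 0.14, limma BH-adjusted p = 0.0163), a call lost without ataxin-7 replicate 2 or without any one non-stop replicate (adjusted p from 0.0548 to 0.0738). This difference was 0.39, still called, after centring by gene length. Mccc1, on the opposite strand, overlaps the last 90 exonic bases of faf, and its reads were 2.31% to 2.70% of those of faf by group mean.

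The pattern of faf was most like that of Dlg5 (r = 0.999 over 9 libraries), CG17159 (r = 0.999) and CG17162 (r = 0.999). CG17159 was at 12.5 ± 3.06 RPKM in OregonR, 36.4 ± 7.06 in ataxin-7 and 58.7 ± 2.52 in non-stop. All 3 genes were higher in every ataxin-7 library than in any OregonR library, which their choice by likeness to faf made likely.

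Usp14 (FBgn0032216) is known from human and yeast as a protease bound to the proteasome, where it trims ubiquitin from substrates. It spans bases 10312265 to 10314396 of arm 2L (minus strand). In OregonR it was at 27.0, 24.9 and 30.5 RPKM. The ataxin-7 libraries held 74.6, 44.7 and 38.9 RPKM. In non-stop it was at 66.3, 62.6 and 62.5 RPKM. Both of these groups lay wholly above OregonR, and the highest single value was ataxin-7 replicate 1.

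The means of Usp14 were 27.5 ± 2.80, 52.7 ± 19.2 and 63.8 ± 2.18 RPKM. In non-stop the mean was 2.32-fold that of OregonR, with a log2 fold change of 1.19 (SE 0.08, limma BH-adjusted p = 1.24e-05), and the call held under every setting run. In ataxin-7 the log2 fold change was 0.86 (SE 0.24, limma BH-adjusted p = 0.0365). This call was lost without any one OregonR replicate and without ataxin-7 replicate 2 (adjusted p from 0.0689 to 0.133). It was kept without ataxin-7 replicate 1, where the log2 fold change was 0.59. With a replicate block, at least 1 of Usp14 and scny lost its call in ataxin-7 against OregonR.

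The gene puf (puffyeye, FBgn0039214) encodes the fly relative of human USP34 and is known to regulate Myc in the fly. It spans bases 24635270 to 24650043 of arm 3R (minus strand). Its RPKM was 8.60, 8.72 and 9.52 in OregonR. It was 15.1, 11.4 and 10.1 in ataxin-7. It was 17.4, 14.5 and 16.0 in non-stop. All ataxin-7 and non-stop values lay above all OregonR values, and the ataxin-7 and non-stop ranges overlapped.

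The mean of puf was 1.79-fold higher in non-stop than in OregonR (8.95 ± 0.50 and 16.0 ± 1.47 RPKM), with a log2 fold change of 0.77 (SE 0.09, limma BH-adjusted p = 0.000176). Relative to the median of all genes this was 0.60. It was called under every setting run, but was 0.37 under quantile normalization and 0.37 after centring by gene length. In ataxin-7 the log2 fold change was 0.39 (SE 0.19) and was not called (limma BH-adjusted p = 0.154). It was 0.24 without ataxin-7 replicate 1 and 0.23 under quantile normalization.

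The gene scny (scrawny, FBgn0260936) encodes the fly relative of human USP36 and is known in the fly for removing ubiquitin from histone H2B and for keeping stem cells. It spans bases 5769002 to 5776271 of arm 3L (plus strand), 7115 bases after the end of Usp47, on the same strand. In OregonR it was at 41.1, 43.8 and 38.8 RPKM. In ataxin-7 it was at 24.0, 26.2 and 27.9 RPKM, and in non-stop at 29.0, 27.4 and 28.0 RPKM. The ataxin-7 and non-stop groups lay wholly below OregonR and overlapped with each other.

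The means of scny were 41.2 ± 2.52, 26.1 ± 1.96 and 28.1 ± 0.805 RPKM. In ataxin-7 against OregonR scny fell by 0.64 on the log2 scale (SE 0.10, limma BH-adjusted p = 0.00927), a call lost without OregonR replicate 1 (adjusted p = 0.0560) or 2 (adjusted p = 0.0681). In non-stop it fell by 0.53 (SE 0.06, limma BH-adjusted p = 0.000156), called under every setting run, and by 0.95 after centring by gene length. Relative to the median of all genes, these changes were -0.70 and -0.71. With a replicate block, at least 1 of scny and Usp14 lost its call in ataxin-7 against OregonR.

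Usp47 (FBgn0016756) is known in the fly for stabilising the MAP kinase Rolled. It spans bases 5752973 to 5761886 of arm 3L (plus strand). Its RPKM was 50.5, 52.0 and 51.0 in OregonR. It was 40.1, 48.1 and 52.4 in ataxin-7, a range that holds all the OregonR values. It was 42.4, 40.0 and 41.0 in non-stop, all below OregonR.

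In non-stop Usp47 fell by 0.31 on the log2 scale (SE 0.05, limma BH-adjusted p = 0.000667), from 51.2 ± 0.800 to 41.1 ± 1.24 RPKM. It was called lower under every setting run, but the size varied, with -0.51 under median-of-ratios scaling, -0.52 by limma-voom and -0.77 after centring by gene length. In ataxin-7 the change of -0.13 (SE 0.11) was not called (limma BH-adjusted p = 0.386). It was -0.03 without ataxin-7 replicate 1 and -0.22 without replicate 3, and not called in either. The gene of its fly target, rl, was not called in ataxin-7 or in non-stop against OregonR. Of Usp47 and its neighbour scny, both were thus lower in non-stop and scny alone was called lower in ataxin-7, and the difference between the 2 genes was not tested.

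Usp7 (FBgn0030366) is known in human cells as the protease of the p53 and MDM2 pathway, and in the fly it acts with GMP synthetase, the product of bur. It spans bases 12022837 to 12029032 of X (minus strand) and had the highest RPKM of the 10 genes in every group. It was at 85.4, 93.4 and 110.9 RPKM in OregonR. It was at 80.6, 94.3 and 106.4 RPKM in ataxin-7, and at 98.0, 88.8 and 92.3 RPKM in non-stop. The 3 groups overlapped one another. The log2 fold changes were -0.04 (SE 0.14) in ataxin-7 and -0.05 (SE 0.10) in non-stop, with limma BH-adjusted p-values of 0.830 and 0.666. The value in non-stop changes with the scaling, to 0.17 under quantile normalization (not called) and to -0.25 under median-of-ratios scaling (called, limma BH-adjusted p = 0.0318). It was also called lower by limma-voom and after centring by gene length, and the lowest value over the settings was -0.46. Relative to the median of all genes, the value of -0.05 became -0.22.

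Usp8 (FBgn0038862), known as UBPY in human cells, acts on endosomes with the sorting proteins Hrs and Stam, and in the fly it takes ubiquitin off the Hedgehog transducer Smoothened. It spans bases 21134262 to 21138214 of arm 3R (plus strand). In OregonR it was at 7.12, 6.79 and 5.29 RPKM. The libraries labelled ataxin-7 held 9.31, 2.13 and 2.69 RPKM, with replicate 1 above and the others below all OregonR values. In non-stop it was at 5.57, 4.89 and 3.64 RPKM, a range that overlaps that of OregonR.

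The change of Usp8 was -0.58 (SE 0.46) in ataxin-7 and -0.38 (SE 0.16) in non-stop on the log2 scale, and neither was called (limma BH-adjusted p = 0.364 and 0.0612). Without ataxin-7 replicate 1 it was -1.11 and called (limma BH-adjusted p = 0.00173). In non-stop it was called without OregonR replicate 3 (-0.50, adjusted p = 0.0156) or without non-stop replicate 1 (-0.49, adjusted p = 0.0400). Median-of-ratios scaling gave -0.55 there, also called (adjusted p = 0.0167), as were the values under quantile normalization, limma-voom and centring by gene length.

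Usp10 (FBgn0052479) is known in human cells to bind G3BP, whose fly relative is rin, and in the fly it acts on Notch. It spans bases 871899 to 895313 of arm 3L (plus strand), and only 36.0% of this stretch is exonic. In OregonR it was at 23.9, 28.4 and 31.4 RPKM. In ataxin-7 it was at 25.9, 30.4 and 33.9 RPKM and in non-stop at 36.4, 31.3 and 33.9 RPKM. Non-stop and OregonR overlapped, since the highest OregonR value lay just above the lowest non-stop value.

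Usp10 was higher in non-stop than in OregonR by 0.28 on the log2 scale (SE 0.11, limma BH-adjusted p = 0.0469), and 0.10 relative to the median of all genes. CG13907, a gene on the opposite strand, lies within an intron of Usp10. Its reads were 1.05% of those of Usp10 in OregonR, 9.14% in ataxin-7 and 15% in non-stop. Whether the authors' counting used strand is not given in the sources used here, so these reads may also be counted for Usp10. With them taken off, Usp10 was at 27.6 ± 3.59, 27.5 ± 5.73 and 28.8 ± 2.40 RPKM, and the log2 fold change in non-stop was 0.06. The call was also lost under most other settings, and without OregonR replicate 1 or 2 or non-stop replicate 1 or 3 (adjusted p from 0.089 to 0.148).

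Usp12-46 (FBgn0039025) corresponds to human USP12 and USP46, which are activated by the WD-repeat proteins WDR48 and WDR20, in the fly CG9062 and CG6420. It spans bases 22750901 to 22776374 of arm 3R (plus strand), and exons take 8.67% of this stretch. Its RPKM was 3.38, 3.83 and 3.73 in OregonR. It was 3.38, 2.89 and 3.12 in ataxin-7, and 4.05, 3.75 and 3.81 in non-stop. Non-stop lay wholly above ataxin-7 and overlapped OregonR.

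Usp12-46 was not called in the 3 comparisons. Its log2 fold change was -0.17 (SE 0.17) in ataxin-7 and 0.07 (SE 0.09) in non-stop, with limma BH-adjusted p-values of 0.473 and 0.483, and the latter turned to -0.09 under median-of-ratios scaling and to -0.32 after centring by gene length, where it was called (limma BH-adjusted p = 0.00627). Against ataxin-7, the non-stop value of 0.24 (SE 0.13) became 0.28 without ataxin-7 replicate 1 and was called there (limma BH-adjusted p = 0.0109). Its values are uncertain, since CG7029 starts at the same base and shares 582 exonic bases with it (26.4% of its exons). The reads of CG7029 were 230%, 225% and 341% of those of Usp12-46 in OregonR, ataxin-7 and non-stop.

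The authors' lengths run over whole genes with introns, so levels were compared between genes also per kilobase of exons, which takes all reads of a gene as exonic. On this scale, in reads per kilobase of exons and megaread, Usp7 was highest in OregonR (106 ± 14.3). Usp47 (78.0 ± 1.22) and Usp10 (77.5 ± 10.5) followed, and their ranges overlapped. Next came scny (53.9 ± 3.29), then Usp12-46 (42.1 ± 2.69) and Usp14 (35.9 ± 3.66), which overlapped each other. The order ended with faf (19.2 ± 5.20), puf (9.77 ± 0.547), Usp8 (7.51 ± 1.14) and Usp5 (3.13 ± 0.522), each apart from the next. Usp12-46 moved from rank 9 of 10 per kilobase of gene to rank 5 per kilobase of exons. Its place is uncertain in every group, since it shares exonic bases with CG7029.

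In non-stop the order differed. Usp7 (102 ± 5.11), faf (99.9 ± 7.88) and Usp10 (94.0 ± 7.12) led, and each of these overlapped the next. Usp14 (83.3 ± 2.85) and Usp5 (70.5 ± 0.392) came next, each apart from its neighbours in the order. The level of Usp10 may hold reads of the nested CG13907. Taking these off lowered Usp10 in non-stop from 33.9 ± 2.57 to 28.8 ± 2.40 RPKM, so its place above Usp14 is uncertain. Usp47, Usp12-46, scny, puf and Usp8 followed, all apart, from 62.8 ± 1.89 down to 5.51 ± 1.15. The libraries labelled ataxin-7 had a less distinct order, in which Usp7, Usp10, Usp47, Usp14 and faf each overlapped the next.

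**Figure D4:**
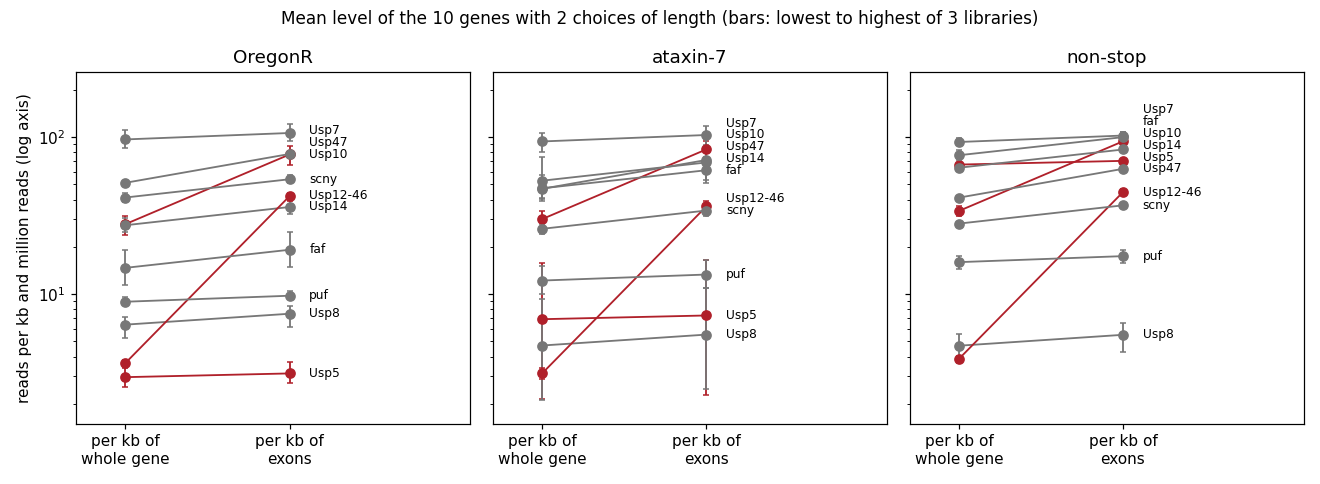
Mean level of the 10 genes (log axis, reads per kilobase and megaread) per kilobase of the whole gene and per kilobase of exons in each group; bars run from the lowest to the highest of 3 libraries. Usp12-46 and Usp10, whose exons take 8.67% and 36.0% of the gene, rise most between the scales (red, with Usp5).

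Summed over the 10 genes, this level was 433 ± 32.5 in OregonR, 485 ± 23.0 in ataxin-7 and 617 ± 29.5 in non-stop. Usp5 made up 0.719% ± 0.0684 of the sum in OregonR, 1.47% ± 1.56 in ataxin-7 and 11.4% ± 0.555 in non-stop. The share of faf was 4.38% ± 0.863, 12.6% ± 1.87 and 16.2% ± 0.499. The share of Usp7 was 24.4% ± 1.5, 21.3% ± 3.49 and 16.6% ± 0.0622, with mean levels between 102 and 106. The sums hold genes chosen for their values, Usp5 among them, and were not tested. They may also hold reads of CG13907 counted for Usp10.

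**Figure D5:**
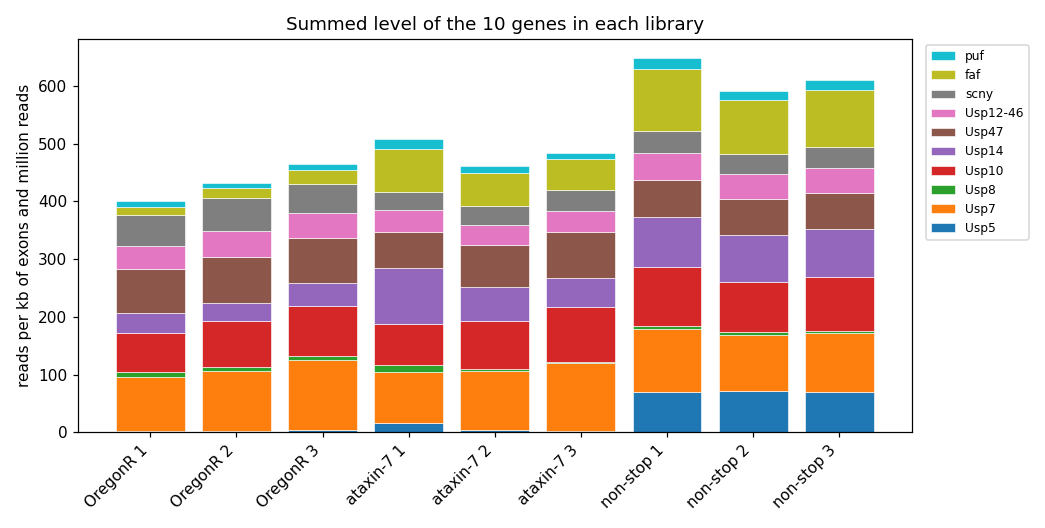
Level of the 10 genes stacked in each library, in reads per kilobase of exons and megaread. The sums lie between 401 and 466 in OregonR, between 462 and 508 in ataxin-7 and between 591 and 649 in non-stop.

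A list of 13 further ubiquitin-specific protease genes was read beside these. In ataxin-7 against OregonR 5 of 13 were called (3 higher, 2 lower), in non-stop against OregonR 12 of 13 (7 higher, 5 lower) and in non-stop against ataxin-7 3 of 12 (2 higher, 1 lower), not itself among the lower ones in both non-stop comparisons. The shares over all genes were 32.4%, 82.7% and 32.2%, so these counts lay near the background. DUBAI was at 6.22 ± 1.40 RPKM in OregonR, 14.2 ± 4.84 in ataxin-7 and 28.3 ± 1.16 in non-stop, in the same order as faf. Usp1, which in human cells works with the same WDR48 as Usp12-46, was at 22.5 ± 6.28, 43.9 ± 2.77 and 53.1 ± 2.89 RPKM. The eye-development gene ec (echinus) was lower, at 3.98 ± 0.819, 0.795 ± 0.450 and 0.110 ± 0.0820 RPKM. Of 16 deubiquitinase genes of other families, 14 were tested. In ataxin-7 5 were called (1 higher, 4 lower) and in non-stop 12 (5 higher, 7 lower), near the 32.4% and 82.7% of all genes. The ovarian gene otu rose from 4.66 ± 2.42 RPKM in OregonR to 53.3 ± 7.30 in non-stop. In ataxin-7 replicates 1, 2 and 3 otu was at 62.4, 9.03 and 7.30 RPKM. Uch-L5, whose human relative binds the proteasome, fell from 230 ± 10.2 RPKM in OregonR to 94.7 ± 3.48 in non-stop.

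Genes that supply ubiquitin were read as 5 genes. In ataxin-7 against OregonR limma called 0 of them, beside 32.4% of all genes, and 0 had an unadjusted p under 0.05. Limma-voom also called 0, with 1 under 0.05 unadjusted. All 5 were called in non-stop against OregonR, 3 higher and 2 lower, where 82.7% of all genes were called. The polyubiquitin genes Ubi-p63E and Ubi-p5E rose from 20.1 ± 4.77 to 210 ± 15.9 RPKM and from 124 ± 4.61 to 363 ± 2.85 RPKM. The ubiquitin-activating enzyme gene Uba1 rose from 28.7 ± 2.43 to 54.5 ± 2.60 RPKM. RpL40 and RpS27A, which encode ubiquitin fused to a ribosomal protein, fell by 0.57 and 0.46 on the log2 scale. In ataxin-7 replicate 1 Ubi-p63E was at 210 RPKM, and in replicates 2 and 3 at 35.4 and 31.5 RPKM, a split like that of Usp5. All 3 of these values lay above those of OregonR.

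Partners and substrates of the 10 proteases formed a list of 12 genes. In ataxin-7 against OregonR 4 were called (3 higher, 1 lower), in non-stop against OregonR 9 (8 higher, 1 lower) and in non-stop against ataxin-7 6 (all higher), beside 32.4%, 82.7% and 32.2% of all genes. CG6420, the relative of WDR20, was at 4.18 ± 2.15 RPKM in OregonR, 15.4 ± 5.36 in ataxin-7 and 30.2 ± 2.35 in non-stop, while Usp12-46 itself was not called. Hrs, a partner of Usp8 on endosomes, was at 20.2 ± 6.20, 38.1 ± 2.23 and 45.8 ± 0.393 RPKM. The substrate gene smo was lower in ataxin-7 and in non-stop, at 114 ± 13.8, 44.4 ± 11.4 and 37.1 ± 1.24 RPKM. The gene rin rose from 47.8 ± 2.76 to 98.0 ± 5.07 RPKM in non-stop.

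The stage lists moved in the same comparisons. Of the 22 early zygotic genes 16 were called lower in ataxin-7 against OregonR, beside 16.4% of all genes. In non-stop 21 were called lower, beside 35.1% of all genes, and 1 higher. Of the maternal genes, 5 of 13 tested were called higher in ataxin-7 and 13 of 15 in non-stop, beside 16.0% and 47.7% of all genes. The part of these changes in those of faf, Usp14, puf, scny and Usp47 was not tested. Ataxin-7 replicate 1 was the highest or the lowest of its group for 10 of 10 protease genes, which was also so for 92.9% of the 7361 genes that reached 1 RPKM in 3 or more libraries. Non-stop replicate 1 was so for 9 of the 10, the highest each time, beside 77.6% of all genes, and OregonR replicate 3 for 8 of the 10, beside 86.6%.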

How the data were processed

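The authors deposited 1 table of RPKM for 15682 genes in 9 libraries, all of which were mapped to samples. The submitters' processing notes name CASAVA 1.8.2, TopHat2 2.0.13, edgeR 3.14.0 and the build dm3. The aligner's settings, the counting and the annotation are not given in the sources used here. The RPKM were whole reads divided by a length and by a rescaled library size (factors from 0.958 to 1.07), and reads were recovered for 100% of 12979 genes above 0 in at least 2 libraries (relative tolerance 3e-13). The length was within 5% of the whole gene, introns included, for 83.4% of 10187 genes with introns, so RPKM of genes with long introns understate their RNA, and a nested gene may share its reads. In a gene of 1 kb, 3 reads are 0.0341 to 0.0767 RPKM, for counting error only.

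Each pair of groups was tested with limma 3.58.1 (R 4.3.3; lmFit, eBayes with trend, two-sided) on log2(RPKM + 1), over genes that reached 1 RPKM in 3 or more libraries of the fit, with BH adjustment over all of them. Fold changes on this scale understate those of low genes. P-values cover the spread between the 3 biological replicates of each group, and not any spread between experiments. The fit was also run on simulated reads in which every gene had the same spread between replicates. In ataxin-7 the SD of the genes described here ran from 7.52% to 110% of the mean. The simulation thus gives no error rates for comparisons with that group. Positions and exons are from BDGP6 (Ensembl release 115), by identifier (15002 matched). The remaining steps ran in Python 3.11.15 with scipy 1.17.1, pandas 2.3.3 and numpy 2.4.6.

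The 10 genes and all lists were chosen with earlier results of these data known. Genes named beyond the 10 were the targeted genes, the 3 genes most correlated with Usp5 and with faf, the neighbours within 5 kb of Usp5, genes that overlap one of the 10, and from each list some of the 4 called and non-overlapping genes of largest change in each direction. Symbols in the lists were matched to the annotation after the table was read. Alternatives were another pseudocount (0.1), other filters (none, 0.5 RPKM), quantile and median-of-ratios scaling, centring in 20 bins of gene length, all libraries in 1 fit, a replicate block, limma-voom on recovered reads, no trend and each replicate left out. Taking the reads of CG13907 off Usp10 was added after seeing the data.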

Additional observations from a re-analysis of the deposited data

Results flagged for a closer look

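The change of faf against OregonR differed between the ataxin-7 and non-stop libraries. It was larger in non-stop than in the libraries labelled ataxin-7 by 0.70 on the log2 scale (SE 0.14, limma BH-adjusted p = 0.0163), and all 3 non-stop values lay above all 3 ataxin-7 values. The same difference was not called for the other 8 genes tested, but without ataxin-7 replicate 1 it was called for 5 of them (Usp14, puf, Usp8, Usp12-46 and Usp47), in a fit that called 81.1% of all genes. Genotype and experiment cannot be told apart in this value, and it lost its call without ataxin-7 replicate 2 or any one non-stop replicate (adjusted p from 0.0548 to 0.0738). After centring by gene length it was 0.39, still called.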

How the results depend on the processing

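The number of the 9 genes called was 3, 6 and 1 in ataxin-7 against OregonR, non-stop against OregonR and non-stop against ataxin-7. Over the other settings, replicates kept, it ran from 2 to 3, from 5 to 8 and at 1. With 1 replicate left out it ran from 1 to 4, from 5 to 7 and from 0 to 6. The counts over all genes (2285, 6024 and 2241) ran from 201 to 3541, from 5244 to 5982 and from 749 to 5550 with 1 replicate left out, and from 471 to 3351, 5201 to 8140 and 1383 to 2870 under the other settings. Replicate numbers were not taken as pairing the samples. The correlations of deviations from the group means ran from -0.24 to 0.43. With 3 libraries in each group they cannot decide whether the numbers pair. With a replicate block, 2, 6 and 1 of the 9 genes were called and 471, 5895 and 1383 of all genes.

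Small changes turned their sign, of which only that of Usp10 in non-stop against OregonR had been called. In ataxin-7 against OregonR, quantile normalization gave 0.080 for Usp7 and -0.077 for Usp10, and Usp10 without the reads of CG13907 gave -0.018. In non-stop against OregonR, quantile normalization gave 0.17 for Usp7 and -0.16 for Usp12-46, for which median-of-ratios scaling gave -0.093, limma-voom -0.12 and centring by length -0.32 (called, limma BH-adjusted p = 0.00627). Centring by length gave -0.11 for Usp10. In non-stop against ataxin-7, quantile normalization gave 0.082 for Usp7 and -0.034 for Usp8. Median-of-ratios scaling gave -0.025 and limma-voom -0.027 for scny. Centring by length gave -0.11 for Usp8, -0.13 for Usp10, -0.062 for Usp12-46 and -0.24 for scny. With 1 replicate left out, Usp5 ran from -0.17 to 1.04 and Usp7 from -0.14 to 0.061 in ataxin-7 against OregonR, Usp7 from -0.13 to 0.057 in non-stop against OregonR, and Usp7 from -0.11 to 0.091 and Usp8 from -0.13 to 0.73 in non-stop against ataxin-7. The cause was not tested. Of all the changes of single genes under the settings, 411 kept their sign and side of the threshold, 25 lost a call, 16 gained one, 27 turned and 4 moved. Each value of these genes rests on at least 478 reads, and non-stop libraries held 36.9 to 39.3 M reads against 74.8 to 90.0 M in the others. The part of depth in the calls was not tested.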
